A study of Mus musculus with 46 samples.

Results

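Cyclins, their kinases and the proteins that copy DNA were followed in mouse liver during the first 4 h after partial hepatectomy (PH), the surgical removal of 70% of the liver. The members were the probe sets whose single gene symbol in the platform annotation begins with Ccna, Ccnb, Ccnd, Ccne, Mcm or E2f, or with Cdk or Cdc and a digit, or is one of a short list that includes Pcna, Rrm1, Rrm2, Mki67 and Top2a. The rule found 93 probe sets (groups of short oligonucleotides that measure 1 transcript) of 69 genes among the 12488 on the array, and 21 of the genes had several probe sets. Symbols that begin with these letters also took in genes outside the cell cycle, such as Cdc42 and the Cdk5 activators, and these are kept apart below as accessory genes. A further 2 probe sets for Tyms carried several symbols and were left out, and no probe set with the symbol Ccnb1 alone was analysed here.

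All animals were male CB6F1 hybrid mice with no genetic change given in the labels. Young mice were 5 to 6 months old and came from Jackson Laboratories, and old mice were 25 to 27 months old and came from the National Institute on Aging, so age and supplier cannot be told apart. Each age gave 3 arrays from livers without surgery (0 h), 3 at each of 0.5, 1, 2 and 4 h after PH, and 2 at each of the same times after a sham operation. These 46 arrays form 18 groups. Surgery was done under avertin and isoflurane, and whole-liver RNA was measured on the Affymetrix Murine Genome U74 Version 2 array as log2 expression values. In whole liver, fewer cells of a type and less RNA per cell cannot be told apart. Nothing in the labels ties each array of a group to a separate mouse, so the spread behind every p-value may include technical repeats.

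A resting liver cell that is to divide first makes D-type cyclins, which with Cdk4 and Cdk6 phosphorylate the pocket proteins Rb1, Rbl1 and Rbl2. Phosphorylated pocket proteins release E2F factors, which switch on cyclin E, the Mcm helicase, Pcna and the enzymes of deoxynucleotide synthesis, and later cyclins A and B with Cdk1 drive mitosis. In regenerating rodent liver, hepatocytes leave quiescence within hours, whereas DNA synthesis follows a day or more later. The series' design text sets out to compare the response of young and old mice to PH.

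The livers had the hepatocyte profile: over the 46 arrays Alb, the main plasma protein, lay between 13.34 and 14.04 and Apoa1 between 13.62 and 14.12 on the log2 scale, against array medians of 6.22 to 6.33. A principal component analysis set the 16 sham arrays apart: on its leading axis, 26.8% of the variance, they scored 7.75 to 30.3 and no other array exceeded 6.27 (young 0 h replicate 3). Comparisons with sham therefore carry this gap, called the offset of the sham arrays below, and PH was compared first with 0 h. The source of the offset was not tested, and its size may differ between sham times. Some markers of hepatocytes and of other cells moved after PH against 0 h. Of 6 hepatocyte markers, Tat rose (0.88) and Hpd fell (-0.32) at 4 h. At 2 h Tat rose (0.67) and Alb fell (-0.35), and at 1 h Tat rose (0.59) and Ttr fell (-0.375). At 4 h, 2 of 7 neutrophil markers (S100a8 and S100a9) rose and the granule genes Ngp, Camp, Elane, Ltf and Mpo did not pass. S100a8 and S100a9 had also risen at 1 h (2.41 and 2.00) and at 2 h (1.80 and 1.51), where the granule genes did not pass either. The summed level of the 7 markers was 39.08 to 41 at 0 h, 41.62 to 45.18 at 4 h after PH and 42.2 to 46.33 after sham. Of 5 endothelial markers, Cdh5 rose (0.50) and Kdr (-0.27) and Tek (-0.36) fell at 4 h, with a summed level of 30.1 to 31.26 at 0 h and 30.63 to 31 at 4 h. At 2 h Cdh5 (0.41) and the cholangiocyte gene Krt19 (0.67) rose and Pecam1 (-0.25) fell. Of 8 Kupffer cell and macrophage, 8 lymphocyte, 5 stellate cell and fibroblast and 3 cholangiocyte markers, none passed at 4 h (smallest limma adjusted p 0.0647, for Krt19). The part of these cells in the results was not tested.

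The promoters of 4 members whose 4 h change held in every fit that kept the probe set are shown, chosen for their different functions. Rrm2 makes deoxynucleotides, Mki67 marks proliferating cells, E2f3 is an E2F factor and Rbl2 is a pocket protein. Each sequence is the 250 bases upstream of a RefSeq start (GRCm38.p6), 5′ to 3′ on the gene's strand. Capitals mark matches to the E2F site (TTTGGCGC, TTTCCCGC, TTTGCCGC or TTTCGCGC), the cell cycle element CHR (TTTGAA), the promoter element known as the CCAAT box, the AP-1 site (TGACTCA), the CRE site (TGACGTCA) or the E-box (CACGTG). Each motif was searched on its own, on both strands.
Rrm2 (chr12:24708004-24708253, + strand): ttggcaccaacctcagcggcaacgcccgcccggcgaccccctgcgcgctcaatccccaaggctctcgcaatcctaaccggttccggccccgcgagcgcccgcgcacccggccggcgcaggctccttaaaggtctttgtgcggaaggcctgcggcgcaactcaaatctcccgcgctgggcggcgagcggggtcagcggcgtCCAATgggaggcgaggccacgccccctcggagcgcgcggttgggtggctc
Mki67 (chr7:135716380-135716629, - strand): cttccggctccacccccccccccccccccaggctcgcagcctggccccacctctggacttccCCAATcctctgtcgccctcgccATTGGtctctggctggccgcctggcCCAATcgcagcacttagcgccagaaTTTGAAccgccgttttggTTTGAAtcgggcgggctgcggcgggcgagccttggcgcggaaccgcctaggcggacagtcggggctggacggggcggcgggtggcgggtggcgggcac
E2f3 (chr13:29986064-29986313, - strand): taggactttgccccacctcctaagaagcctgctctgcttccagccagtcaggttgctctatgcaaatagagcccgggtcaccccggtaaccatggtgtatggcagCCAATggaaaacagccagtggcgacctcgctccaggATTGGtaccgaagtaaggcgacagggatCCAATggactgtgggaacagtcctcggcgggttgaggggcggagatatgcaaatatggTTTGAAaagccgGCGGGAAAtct
Rbl2 (chr8:91069807-91070056, + strand): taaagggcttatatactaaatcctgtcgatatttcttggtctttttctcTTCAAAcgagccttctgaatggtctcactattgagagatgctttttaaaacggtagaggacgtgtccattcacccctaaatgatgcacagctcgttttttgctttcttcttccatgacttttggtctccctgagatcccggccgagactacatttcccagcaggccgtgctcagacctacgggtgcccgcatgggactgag

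Windows were found for 57 of the 69 genes, 65 windows in all. An E2F site lay in 9 of them, 13.8%, against 1.86% of 32851 windows of the same length, and a CCAAT box in 36, 55.4%, against 33.8%. The other motifs were a CHR element in 13 (20%, against 16% of all windows), an E-box in 5 (7.69%, against 6.02%), a CRE site in 2 (3.08%, against 1.55%) and an AP-1 site in 0 (against 4.46%). The E2F sites stood before Cdc25a, Cdc6, Cdk1, Cdk2, E2f3, Mcm5, Mcm6, Mcm7 and Rbl1. Only E2f3 and 1 of the 2 Cdk2 probe sets among these genes passed at 4 h after PH, in opposite directions. The table holds a second E2f3 window, at another start, with an E-box as its only match. The Rrm2 window held 1 CCAAT box, the Mki67 window 3 CCAAT boxes and 2 CHR elements, the E2f3 window shown 3 CCAAT boxes, 1 CHR element and 1 E2F site, and the Rbl2 window 1 CHR element. A match describes the letters only.

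Within 4 h of PH only a minority of the member probe sets passed against 0 h, and no role passed as a block. A member that did not pass may still have moved. Against 0 h, Rrm2, Mki67 and E2f3 rose and Rbl2, Mcm10 and Cdk2ap2 fell at 4 h, by 1.22-fold to 2.44-fold, in every fit that left out 1 array and under every other processing setting that kept the probe set. These are differences from 0 h, and sham arrays shared some of them. Rrm2 was higher at 4 h after sham than at 0 h, and Rbl2 was lower over the sham times together. Cdk2ap2 fell between the earliest and latest sham times, a call that most fits without 1 array lost. Mki67 was higher after PH than after sham at 4 h. Between the earliest and latest times, the change passed as different between PH and sham for none of these 6 genes. At 4 h against 0 h, 9 of the 93 probe sets rose and 7 fell (15 genes, 17.2% of the members). Of all 12422 probe sets tested 23.5% had passed, and the gap between these shares was not itself tested. Each probe set was tested by limma's moderated test on a model of all 46 arrays, passed at an adjusted p under 0.05. There were 6 PH and 6 control arrays over both ages. The median difference of the members was 0.04, against 0.02 for all probe sets. Leaving out any 1 of the 12 arrays gave 11 to 14 passing members.

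**Figure D1:**
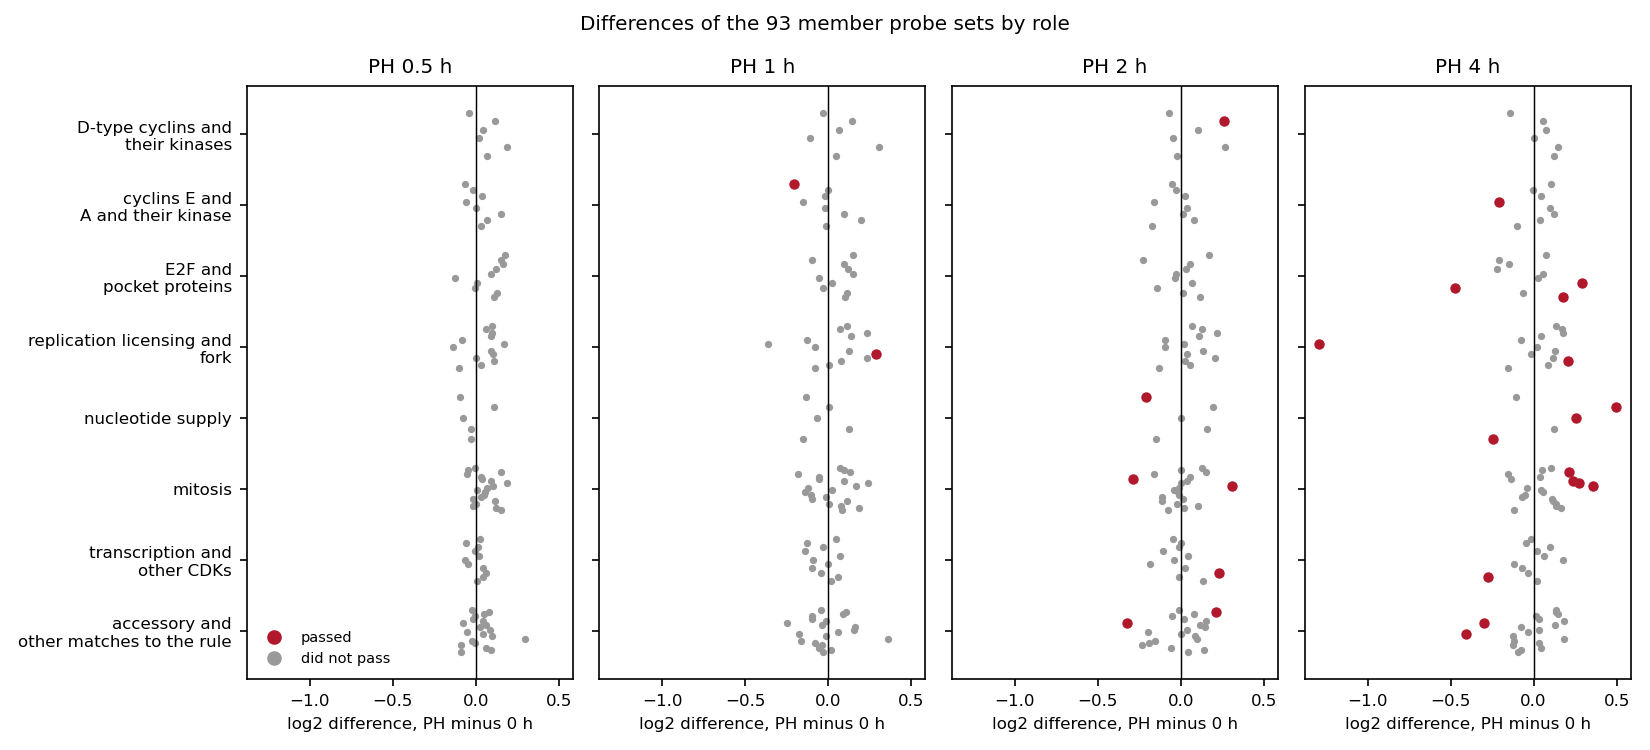
Each point is 1 of the 93 member probe sets, plotted by its log2 difference between PH and 0 h (both ages, 6 arrays a side) at 0.5, 1, 2 and 4 h and by the role of its gene, in red where limma's adjusted p was under 0.05. No member passed at 0.5 h, and at 4 h the passing members lay on both sides of 0 in 3 of the 8 roles, with Mcm10 farthest out at -1.29.

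Among the nucleotide enzymes, Rrm2, the small subunit of ribonucleotide reductase, lay between 4.10 and 4.43 (median 4.30) at 0 h and between 4.50 and 5.08 (median 4.75) at 4 h. All 6 arrays at 4 h lay above all 6 at 0 h. The difference was 0.495 ± 0.101 (SE), a 1.41-fold rise, with a limma adjusted p of 0.000381. The probe sets of the large subunit Rrm1 did not pass at 4 h, with differences of -0.11 (100612_at) and 0.13 (161731_at). Tk1, thymidine kinase of the salvage pathway, had 2 probe sets that went opposite ways, 96081_at by -0.25 (adjusted p = 0.0123) and 161150_at by 0.26 (adjusted p = 0.0266). No direction can be given for that gene. Old 0 h replicate 1 decided the call of the first (adjusted p = 0.0522 without it). The call of the second was lost without young 0 h replicate 2 (0.0885), old 0 h replicate 2 (0.0834), young PH 4 h replicates 1 (0.0941) or 2 (0.0513), or old PH 4 h replicate 2 (0.0517).

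Among E2F factors and pocket proteins, 2 of 10 probe sets rose and 1 fell. E2f3, an activating E2F, lay between 4.27 and 4.87 (median 4.49) at 0 h and between 4.52 and 5.03 (median 4.84) at 4 h. The ranges overlapped, since young 0 h replicates 1 (4.87) and 2 (4.68) stood within the PH range, and the difference was 0.29 ± 0.07 (adjusted p = 0.00326). Rbl2, the p130 pocket protein of quiescent cells, lay between 5.42 and 5.94 (median 5.72) at 0 h and between 4.92 and 5.51 (median 5.29) at 4 h. The groups met only where young PH 4 h replicate 2 (5.51) lay above young 0 h replicate 3 (5.42). The difference was -0.47 ± 0.11 (adjusted p = 0.002). E2f5, a repressive E2F, rose by 0.18 (adjusted p = 0.0218), but the call was lost without young 0 h replicates 1 or 2, old 0 h replicate 3, young PH 4 h replicate 3 or old PH 4 h replicate 2, with adjusted p of up to 0.0854. E2f1 (0.08 and 0.05 for its 2 probe sets), Rb1 (-0.07 and 0.02) and Rbl1 (-0.22, adjusted p = 0.0578) did not pass.

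In the licensing and fork group, 1 of 13 probe sets rose and 1 fell. Mcm10, which loads the polymerase at origins, lay between 7.23 and 8.65 (median 7.76) at 0 h and between 5.97 and 7.60 (median 6.29) at 4 h. The highest PH array, young PH 4 h replicate 2 (7.60), lay above all old 0 h arrays and below all young 0 h arrays. Mcm10 showed the largest difference of any member at 4 h, -1.29 ± 0.31 (2.44-fold lower, adjusted p = 0.00193), and the largest standard deviation within a group among the members (1.23, old PH 1 h). Mcm4, a subunit of the replicative helicase, lay between 5.06 and 5.39 at 0 h and between 5.26 and 5.53 at 4 h, a rise of 0.20 (adjusted p = 0.021). The Mcm4 call was lost without young 0 h replicates 1 or 3, old 0 h replicate 3, young PH 4 h replicate 3 or old PH 4 h replicate 2, with adjusted p of 0.0513 to 0.0627. The other helicase subunits did not pass, with differences of 0.09 for Mcm2, 0.13 and -0.01 for the 2 probe sets of Mcm3, 0.18 and 0.12 for those of Mcm5, 0.17 for Mcm6 and -0.15 for Mcm7. Pcna, the sliding clamp, differed by 0.05 (95% interval -0.12 to 0.21).

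In the mitotic group, 4 of 20 probe sets rose and 0 fell. Mki67, measured by 161931_r_at, lay between 5.35 and 5.97 (median 5.58) at 0 h and between 5.73 and 6.10 (median 6.01) at 4 h. The 3 old 0 h arrays were the lowest and the young 0 h arrays reached into the PH range, and the difference was 0.36 ± 0.08 (adjusted p = 0.00181). Its other probe set, 99457_at, had low values (2.93 to 3.26 at 0 h, 3.03 to 3.61 at 4 h) and did not pass (0.16, 95% interval -0.05 to 0.38). The setting without cross-hybridisation suffixes left out 161931_r_at, the probe set behind the Mki67 calls. The remaining rises were 0.21 for Cdc25c (102934_s_at), a phosphatase that activates Cdk1, 0.24 for Bub1 (104097_at), a spindle checkpoint kinase, and 0.28 for Plk1 (161292_f_at), a mitotic kinase. The Bub1 call was lost without young 0 h replicate 3, old 0 h replicate 2, young PH 4 h replicate 2 or old PH 4 h replicates 1 or 3 (adjusted p of up to 0.162). The Cdc25c call was lost in 9 of 12 fits without 1 array (up to 0.164), all but those without old PH 4 h replicate 2 or replicate 1 of either 0 h group. The Plk1 call was lost in 10 of 12 (up to 0.107), all but those without young 0 h replicate 3 or old PH 4 h replicate 2. The other probe sets of Plk1 differed by 0.05 and 0.06. Cdk1, the mitotic kinase itself, differed by 0.11 (95% interval -0.02 to 0.24) and Top2a, which untangles replicated DNA, by -0.12 (-0.29 to 0.05).

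Among the G1 and S phase cyclins and kinases, only Cdk2 (94412_at), the partner of cyclins E and A, passed at 4 h, and it fell by 0.21 (adjusted p = 0.0314). That call needed young 0 h replicate 3 (0.0933 without it), old 0 h replicate 1 (0.144), young PH 4 h replicate 3 (0.105) and old PH 4 h replicate 3 (0.113), and its other probe set differed by 0.04. Ccne1 differed by 0.11, Ccne2 by 0.10, Ccna1 by -0.01 and Ccna2 by -0.10, and none passed. Of the kinases of the transcription machinery, Cdk8, part of the Mediator complex, fell (-0.28, adjusted p = 0.0387), a call lost without young 0 h replicate 2, old 0 h replicates 1 or 2, young PH 4 h replicates 1 or 3 or old PH 4 h replicate 3 (adjusted p of up to 0.173).

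Of the 20 accessory probe sets, 0 rose and 2 fell. Cdk2ap2, a protein named for its likeness to a Cdk2-binding protein, lay between 8.49 and 8.88 (median 8.69) at 0 h and between 8.0 and 8.47 (median 8.34) at 4 h. The groups did not overlap, and the difference was -0.41 ± 0.08 (adjusted p = 0.000488). The other was Cdc42ep4, an effector of the small GTPase Cdc42 (-0.30, adjusted p = 0.0277), whose call was lost without young 0 h replicates 2 or 3, old 0 h replicate 1, young PH 4 h replicate 1 or old PH 4 h replicate 1 (0.0551 to 0.117).

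**Figure D2:**
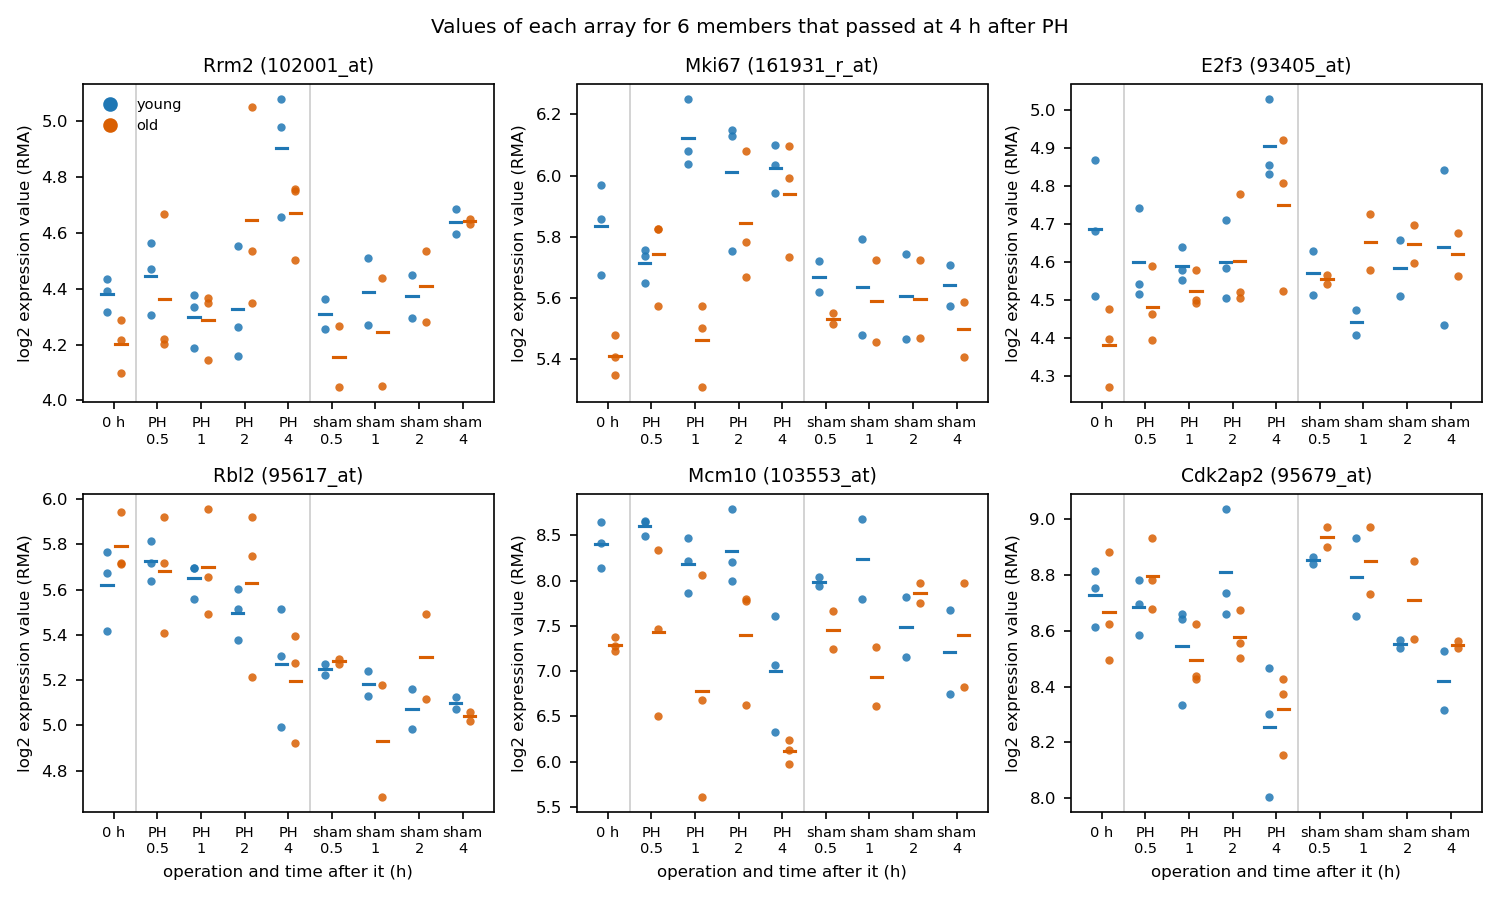
Log2 expression values of every array for Rrm2, Mki67 (161931_r_at), E2f3, Rbl2, Mcm10 and Cdk2ap2 by operation and time, with young arrays in blue, old arrays in orange and a line at each group mean (3 arrays a group at 0 h and after PH, 2 after sham). Rrm2 at 4 h after PH stood between 4.50 and 5.08, above all 0 h arrays, and its sham arrays at 4 h (4.60 to 4.68) stood in the same range.

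Cyclin D1, the gene most used as a marker of G1 entry in regenerating liver, did not pass at any time. Its brighter probe set (94232_at) lay between 6.70 and 7.05 (median 6.88) at 0 h and between 6.70 and 7.78 (median 7.08) at 1 h. The high values came from old PH 1 h replicate 3 (7.78) and young PH 1 h replicate 1 (7.56), and the other 4 arrays lay within or close to the control range. The difference was 0.30 ± 0.13 at 1 h (adjusted p = 0.178), with a 95% interval of 0.04 to 0.56, and 0.15 at 4 h (-0.11 to 0.41). The second probe set (94231_at) differed by -0.11 at 1 h and 0.01 at 4 h. At 4 h Ccnd2 differed by 0.12 (-0.03 to 0.27) and Ccnd3 by 0.08 (-0.03 to 0.19), and neither passed at any of the 4 times. Cdk4, their kinase, rose at 2 h in 1 of its 2 probe sets (160538_at, 8.65 to 9.01 at 0 h and 8.83 to 9.55 at 2 h), by 0.26 (adjusted p = 0.0487). That call was kept only without young 0 h replicate 1 or young PH 2 h replicate 1 and lost in the other 10 of 12 fits without 1 array (adjusted p of up to 0.17), and the other probe set, 101017_at, differed by -0.07.

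At the earlier times fewer members passed. At 0.5 h limma passed 0 of 93 members, and the same 0 with only the compared groups in the fit, against 0.0886% of all probe sets. At an unadjusted p under 0.05 there were 4 members, against 802 of all 12422 probe sets. At 1 h limma passed 2 members (2.15%, against 3.72% of all). Mcm3 (160496_s_at), a helicase subunit, lay between 6.50 and 6.82 at 0 h and between 6.77 and 7.26 at 1 h and rose by 0.29 (adjusted p = 0.0202), but its other probe set did not pass and at 4 h the difference was -0.01. Ccne1, cyclin E1, lay between 7.14 and 7.31 at 0 h and between 6.83 and 7.14 at 1 h and fell by 0.20 (adjusted p = 0.0408). Dropping old 0 h replicate 3 (0.0813), young PH 1 h replicates 2 (0.0593) or 3 (0.0555) or old PH 1 h replicate 3 (0.114) ended the Mcm3 call. The Ccne1 call was lost in 8 of 12 such fits (adjusted p of up to 0.138), all but those without young 0 h replicate 2, young PH 1 h replicate 3 or old PH 1 h replicates 1 or 2. In all, 0 members passed without old 0 h replicate 3, young PH 1 h replicate 2 or old PH 1 h replicate 3. With young PH 1 h replicate 3, young 0 h replicate 1 or old 0 h replicate 2 left out 1 passed, and 4 with old PH 1 h replicate 1 left out. Replicate 3 of old PH 1 h also had the highest summed neutrophil markers (60.71), and without it and 2 other arrays that stood apart the count was 0.

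At 2 h, 4 members rose and 3 fell (7.53%, against 12.8% of all probe sets). Besides Cdk4, Mki67 (161931_r_at) had risen by 0.30 (5.67 to 6.15, adjusted p = 0.0148), as had Ccndbp1, a cyclin D-binding protein, by 0.21 (adjusted p = 0.0121) and Cdk18 by 0.23 (adjusted p = 0.0449). Rrm1 (100612_at) lay between 6.38 and 6.61 at 0 h and between 6.03 and 6.38 at 2 h and fell by 0.21 (adjusted p = 0.016), a fall lost without young PH 2 h replicate 3 (0.0642). Cdc23 (104090_at), part of the anaphase-promoting complex, fell by 0.29 and Cdc42ep4 by 0.32. Of these calls, Ccndbp1 was kept in all 12 fits without 1 array. Mki67 was lost without young 0 h replicate 2, young PH 2 h replicate 2 or old PH 2 h replicate 1 (0.0512 to 0.0576), Cdc23 without young 0 h replicate 2 (0.1) or old PH 2 h replicate 2 (0.053), Cdc42ep4 in 6 fits (up to 0.0996) and Cdk18 in 8 (up to 0.136). The mean of 9 hybridisation control spike-ins was lower at 1 and 2 h after PH (8.33 ± 0.46, SD, n = 12) than at 0 h (9.74 ± 0.70, n = 6). With that mean in the model each of these 7 calls was lost (adjusted p of 0.0864 to 0.545). The 6 genes named first for 4 h kept theirs, but the mean at 0.5 and 4 h after PH (9.82 ± 0.80, n = 12) was close to that at 0 h. This covariate runs with the 2 h comparison and hardly with the 4 h one, so it cannot show which calls are sounder. The number passing fell from 7 to 2 when young 0 h replicate 2 was dropped and to 3 when young PH 2 h replicate 2 was.

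**Figure D3:**
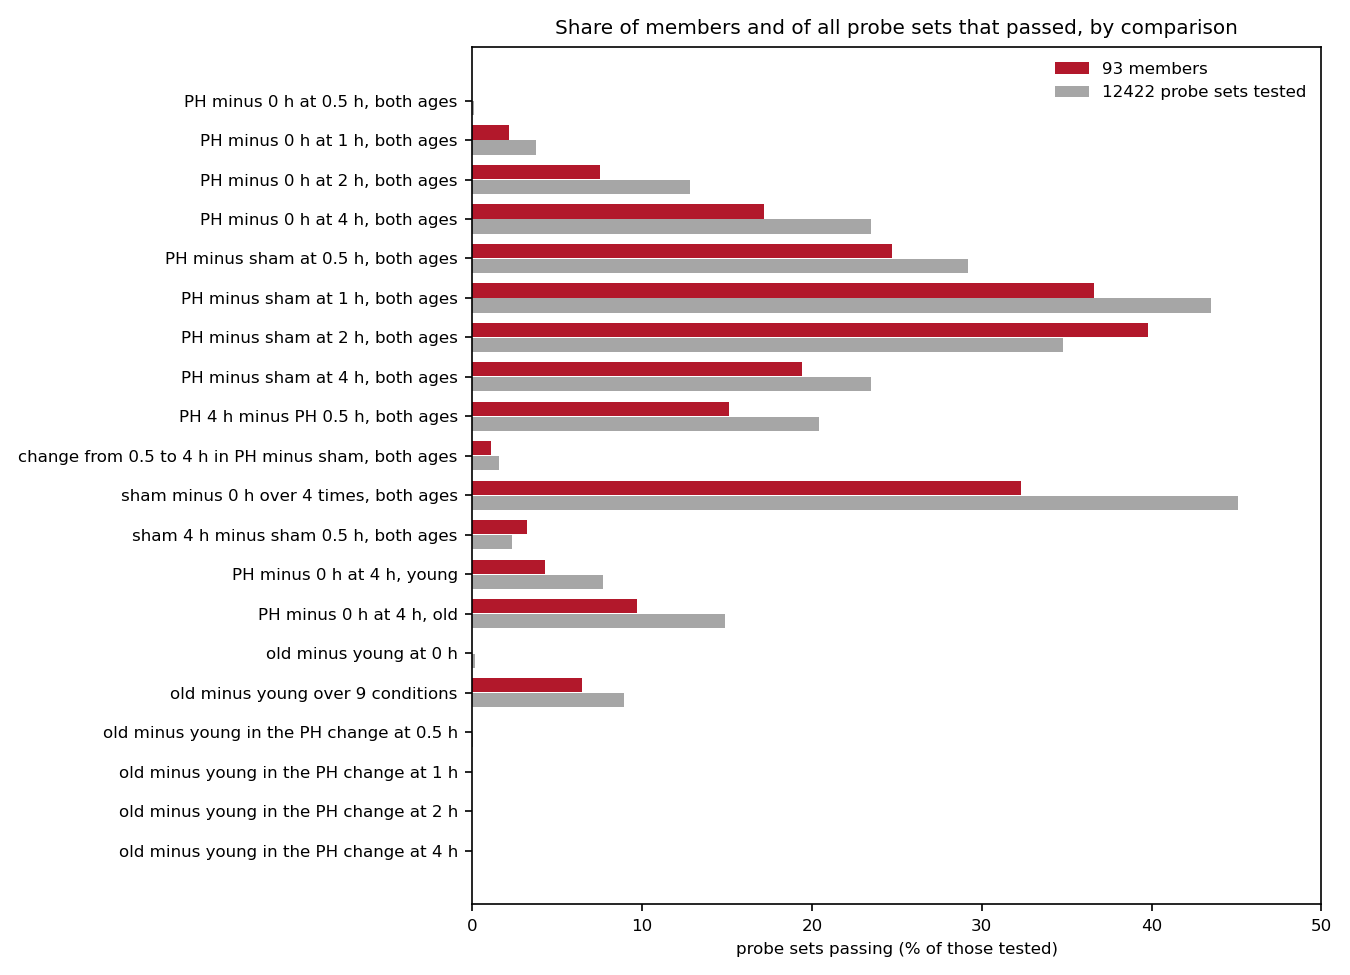
Bars give the share of the 93 members (red) and of all 12422 probe sets (grey) that passed at limma's adjusted p under 0.05 in each of 20 comparisons. The members' share was below that of all probe sets at 1, 2 and 4 h after PH against 0 h (17.2% against 23.5% at 4 h), and 0 members passed in the comparisons of the PH change between ages.

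Around the cycle genes, the inhibitor Cdkn1a, growth arrest genes and immediate early transcription factors rose at 4 h against 0 h. The counts by list are to be read against the 23.5% of all probe sets that passed, and those of 8 CDK inhibitors (1 rose, 1 fell), 33 other replication factors and 27 other mitosis genes lay near that share. Cdkn1a (p21), which holds cyclin-CDK complexes inactive, lay between 8.17 and 8.43 (median 8.25) at 0 h and between 9.15 and 9.55 (median 9.32) at 4 h, a rise of 1.07 ± 0.08 (adjusted p = 3.44e-12) with no overlap between the groups. Cdkn2d (p19) fell by 0.21 (adjusted p = 0.0294). Of 11 growth arrest genes, 4 rose and 2 fell, among them the antiproliferative Btg2 (8.44 to 8.93 at 0 h, 9.85 to 11.38 at 4 h, a difference of 1.72) and the DNA damage response genes Gadd45a (1.95) and Gadd45b (1.08), while Tob1 fell (-1.23). Against sham at 4 h Cdkn1a (0.69), Btg2 (1.26), Gadd45a (1.503) and Gadd45b (0.43) were higher, whereas the Tob1 difference was 0.54 (adjusted p = 0.0719), the opposite sign to that against 0 h. Of 13 upstream growth signals 4 rose: Junb (1.20), Jun (0.82), Btc (0.41) and Myc, which lay between 3.67 and 5.44 at 0 h and between 4.72 and 6.45 at 4 h (1.19, adjusted p = 0.00112). All 4 were also higher than sham at 4 h, by 0.40, 0.52, 0.37 and 1.55 in that order.

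Of 33 other replication factors measured, 2 rose and 6 fell at 4 h, a share near that of all probe sets. The clamp loader subunit Rfc1 lay between 6.16 and 6.27 at 0 h and between 5.50 and 5.75 at 4 h (-0.61, adjusted p = 4.58e-07). Gmnn, geminin, which blocks relicensing of origins, lay between 4.34 and 4.78 at 0 h and between 3.86 and 4.18 at 4 h (-0.54, adjusted p = 9.96e-05), and neither gene's groups overlapped. The single-stranded DNA binding subunits Rpa1 (-0.37) and Rpa3 (-0.25) fell too. Of 27 other mitosis genes, 3 rose and 4 fell, again near the share of all probe sets, led by Cks2, a CDK-binding protein (-1.01, adjusted p = 5.47e-05), Kif20a (-0.32), Lmnb1 (0.24) and Smc2 (-0.33). Against sham at 4 h only Gmnn of the genes just named passed (-0.43, adjusted p = 0.00438). The other named genes did not, with differences of -0.22 for Rfc1 (adjusted p = 0.0598), 0.05 for Rpa1, 0.10 for Rpa3, 0.06 for Cks2, -0.13 for Kif20a, 0.10 for Lmnb1 and 0.02 for Smc2. Of the passing genes not yet named, Dut (0.21), Pole2 (0.22), Cenpe (0.30) and Ube2c (0.25) rose and Cenpa (-0.26) fell against 0 h. Each also passed against sham in the same direction (0.31, 0.23, 0.50, 0.38 and -0.39). Orc5 fell against 0 h (-0.32) but passed as higher than sham (0.32). Rfc5 fell against 0 h (-0.28) and did not pass against sham (-0.09). Wee1, which inhibits Cdk1, passed against 0 h at 1 h (0.47, adjusted p = 0.0117) and at 2 h (0.72, adjusted p = 2.19e-05). At 4 h Wee1 did not pass against 0 h (0.18), and against sham its difference was 0.33, with an adjusted p at the threshold (0.05). Of 8 other cyclins, 0 rose and 2 fell, Ccnf (-0.34) and Ccng1 (-0.61), the latter also counted among the 2 growth arrest genes that fell. Against sham their differences were -0.35 (adjusted p = 0.0172) and 0.01 (adjusted p = 0.961). These lists were drawn up with results of the same arrays known.

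Comparisons with sham carried the offset of the sham arrays. Over the 4 sham times together, 22 members were higher and 8 lower than at 0 h (32.3%, against 45.1% of all probe sets). Of all probe sets, 25.8% were higher and 19.3% lower. In the mitotic group of 20, 9 passed as higher, 1 passed as lower and 10 did not pass. Aurkb, a kinase of chromosome segregation, lay between 6.15 and 6.35 at 0 h and between 6.55 and 6.89 in the 16 sham arrays, without overlap, a difference of 0.43 ± 0.05 (adjusted p = 8.87e-08). Mcm2 was higher by 0.36 (6.54 to 6.84 against 6.84 to 7.29), Cdk1 by 0.34 and Top2a by 0.30. Pcna was lower (7.44 to 7.90 against 7.08 to 7.49, a difference of -0.45, adjusted p = 3.14e-06), as was Rbl2 (-0.56, adjusted p = 1.44e-05). On average Rbl2 lay farther below 0 h in sham than at 4 h after PH.

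The same offset enters the differences between PH and sham. At 0.5 h, 9 members were higher and 14 lower after PH (24.7%, against 29.2% of all), at 1 h 12 and 22 (36.6%, against 43.5%), at 2 h 16 and 21 (39.8%, against 34.8%) and at 4 h 4 and 14 (19.4%, against 23.5%). Pcna was higher after PH at each time, by 0.66, 0.62, 0.52 and 0.39, and Aurkb lower, by -0.48, -0.32, -0.31 and -0.33. At 4 h Top2a lay between 4.22 and 4.49 after PH and at 4.79, 4.83, 4.92 and 4.95 after sham, a difference of -0.56 ± 0.09 (adjusted p = 5.2e-05) with no overlap. Mki67 (161931_r_at) lay between 5.73 and 6.10 after PH and at 5.41, 5.57, 5.59 and 5.71 after sham, again without overlap, a difference of 0.41 ± 0.09 (adjusted p = 0.00186). Single sham arrays weighed on these counts: at 2 h the 37 became 21 without young sham 2 h replicate 2 and 17 without old sham 2 h replicate 2, and at 4 h the 18 became 10 without young sham 4 h replicate 1 and 11 without old sham 4 h replicate 2.

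**Figure D4:**
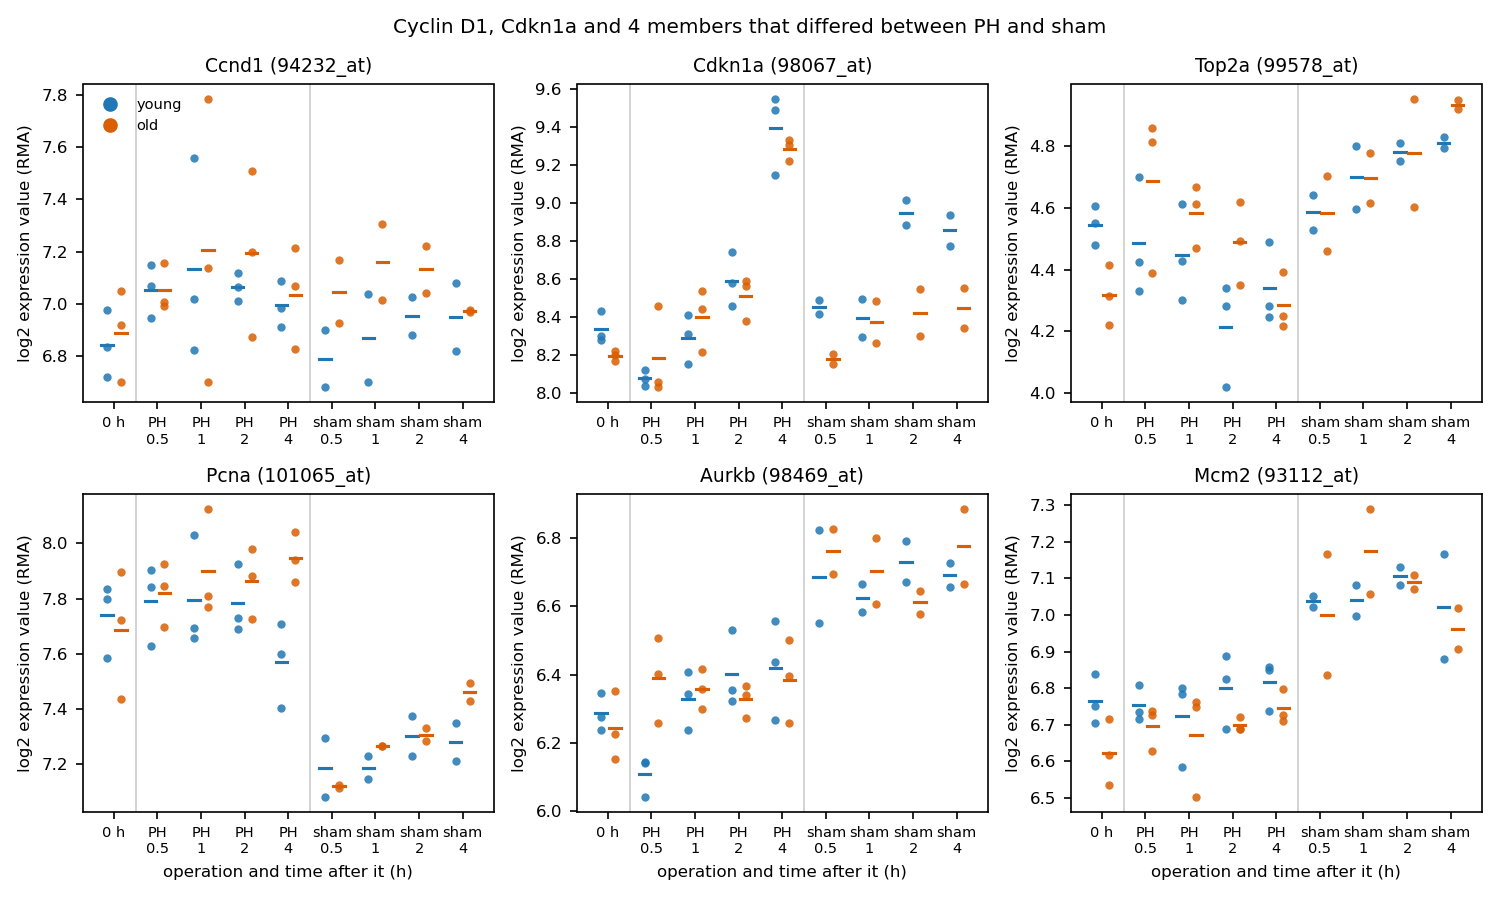
Log2 expression values of every array for Ccnd1 (94232_at), Cdkn1a, Top2a, Pcna, Aurkb and Mcm2, with young arrays in blue, old arrays in orange and a line at each group mean (3 arrays a group at 0 h and after PH, 2 after sham). The 16 sham arrays of Aurkb (6.55 to 6.89) lay above the 0 h arrays at every time and those of Pcna (7.08 to 7.49), all but 1, below them, whereas Cdkn1a was highest at 4 h after PH.

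Only the part of the offset that is equal at 0.5 and 4 h cancels in the change between these times. Within PH, 6 members rose and 8 fell between those times (15.1%, against 20.4% of all), with Cdk2ap2 (-0.45), Mcm10 (-1.46), Rbl2 (-0.47), Rbl1 (-0.35), Rrm2 (0.38) and E2f3 (0.29) among them. Within sham, 2 rose and 1 fell (3.23%, against 2.3% of all), namely Plk1 (161292_f_at), Cdc16 and Cdk2ap2, and at 4 h sham itself 20 members were higher and 7 lower than at 0 h (29%, against 31.3% of all). Rrm2 after sham went from 4.05, 4.26, 4.27 and 4.36 at 0.5 h to 4.60, 4.63, 4.65 and 4.68 at 4 h (0.41, adjusted p = 0.0746), and stood 0.35 above 0 h (adjusted p = 0.0173). Cdk2ap2 fell by 0.41 after sham (adjusted p = 0.0253, and up to 0.161 in the 7 of 8 fits without 1 array that lost the call, all but that without young sham 4 h replicate 1). The sham count of 3 was 0 or 1 in 7 of the 8 fits without 1 sham array: 0 without young sham 0.5 h replicate 1, old sham 0.5 h replicate 2, young sham 4 h replicate 2 or either old sham 4 h array, and 1 without young sham 0.5 h replicate 2 or young sham 4 h replicate 1.

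Tested directly, the change from 0.5 to 4 h differed between PH and sham for 0 members upward and 1 downward (1.08%, against 1.58% of all). That member was Top2a, which went from between 4.33 and 4.86 to between 4.22 and 4.49 after PH and from 4.46, 4.53, 4.64 and 4.70 to the 4 h sham values above (-0.56 ± 0.13, adjusted p = 0.0205). Its call needed each of young sham 0.5 h replicate 1 (0.0779 without it), old sham 0.5 h replicate 2 (0.0829), young sham 4 h replicate 2 (0.0629) and old sham 4 h replicate 1 (0.059). For Rrm2 the difference of changes was -0.03 (95% interval -0.35 to 0.30) and for Cdk2ap2 -0.04 (-0.32 to 0.23). For Mki67 it was 0.29 (0.01 to 0.56), for E2f3 0.22 (-0.02 to 0.46), for Rbl2 -0.27 (-0.63 to 0.09) and for Mcm10 -1.04 (-2.03 to -0.06), with adjusted p between 0.308 and 0.96 for these 6 members. Outside the members, the change of Cdkn1a was larger after PH than after sham by 0.87 (adjusted p = 0.000102).

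Young and old livers were then compared, the question of the study. In young mice 1 member rose and 3 fell at 4 h (4.3%, against 7.66% of all), and in old mice 6 rose and 3 fell (9.68%, against 14.9% of all). Rrm2 and Cdk2ap2 passed in both. In young mice Rrm2 stood at 4.32, 4.39 and 4.43 at 0 h and at 4.65, 4.98 and 5.08 at 4 h (0.52, adjusted p = 0.0189). In old mice it stood at 4.10, 4.21 and 4.29 at 0 h and at 4.50, 4.75 and 4.75 at 4 h (0.47, adjusted p = 0.0231). The groups did not overlap at either age, but each Rrm2 call was lost in 4 of 6 fits without 1 array. These were young 0 h replicates 2 or 3 and young PH 4 h replicates 2 or 3 (up to 0.0963), and old 0 h replicates 2 or 3 and old PH 4 h replicates 2 or 3 (up to 0.107). The Cdk2ap2 differences were -0.47 in young and -0.35 in old mice, lost in 2 and 4 of 6 such fits (up to 0.128 and 0.254). Mki67 rose in old mice from 5.35, 5.41 and 5.48 to 5.73, 5.99 and 6.10 (0.53, adjusted p = 0.00225), a call kept in all 6 fits. In young mice it stood at 5.68, 5.86 and 5.97 at 0 h and at 5.94, 6.04 and 6.10 at 4 h (0.19, adjusted p = 0.398). Of young members, 1 passed without young PH 4 h replicate 1 and 2 without young 0 h replicates 1 or 2 or young PH 4 h replicate 3. Of old members, 1, 5, 4 and 2 passed when old 0 h replicate 2, old 0 h replicate 3, old PH 4 h replicate 2 and old PH 4 h replicate 3 were left out in turn.

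The difference between the ages in the PH change was tested itself, and limma passed 0 members at each time. At 0.5, 1, 2 and 4 h, 10, 6, 8 and 4 of the 93 members had an unadjusted p under 0.05. Of all 12422 probe sets, 957, 607, 652 and 563 did. At the adjusted threshold 0.00805%, 0%, 0% and 0% of all probe sets passed. The member count was also 0 with the compared groups alone. The tests were coarse, since the 95% interval of a member at 4 h reached 0.187 to 1.24 to either side. For Mki67 the old minus young change at 4 h was 0.34 (-0.01 to 0.68), for Rrm2 -0.05 (-0.46 to 0.36), for Rbl2 -0.25 (-0.70 to 0.21) and for Mcm10 0.22 (-1.02 to 1.47).

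At 0 h limma passed 0 members between old and young, against 0.145% of all probe sets. The count was 1 with the compared groups alone and 1 without young 0 h replicate 3. At an unadjusted p under 0.05 there were 13 of the 93 members, against 999 of all 12422 probe sets. Of the 93 members, 18 had the higher mean in old mice at 0 h. The median difference was -0.09, against -0.06 for all probe sets, and the PH changes of each age are measured from these 0 h arrays. The smallest adjusted p was that of Mki67 (161931_r_at, 0.284), with the 0 h arrays given above, all old ones below all young ones. Over all 9 conditions, 1 member was higher and 5 lower in old mice (6.45%, against 8.93% of all). Mcm10 was lower in old mice, with a difference of -0.75 ± 0.16 (adjusted p = 0.00222) and the old mean below the young in 7 of 9 conditions. At 0 h its old arrays stood at 7.23, 7.27 and 7.38 and its young arrays at 8.14, 8.42 and 8.65, whereas after sham at 2 and 4 h the old means were the higher ones. Mki67 (161931_r_at) differed by -0.18 ± 0.04 (adjusted p = 0.00769), lower in 8 of 9 conditions. Both held in all 46 fits without 1 array.

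The other age differences were smaller. Cdc42se1, a Cdc42-binding protein, was higher in old mice (0.16), and Tk1 (96081_at, -0.12), Cdk18 (-0.13) and Rrm1 (161731_at, -0.14) were lower, with adjusted p of 0.0222 to 0.0433. Their calls were lost in 2, 10, 24 and 26 of the 46 fits without 1 array, in that order. Instead of 6, 2 passed without young sham 0.5 h replicate 1 and 3 without old PH 0.5 h replicate 1, old PH 1 h replicate 3, old sham 0.5 h replicate 1 or old sham 2 h replicate 1. Markers of other cells also differed with age over the 9 conditions. Of 8 Kupffer cell and macrophage markers 3 were higher in old mice (Cd5l, C1qb and Csf1r) and of 8 lymphocyte markers 2 (Ighm and Jchain), while the hepatocyte genes Cps1 and Hpd and the endothelial gene Tek (-0.16) were lower. The summed Kupffer cell level at 0 h was 52.39 to 53.95 in young and 52.5 to 56.86 in old mice, and the summed lymphocyte level 44.21 to 45.32 and 45.68 to 48.51. The Kupffer cell sums of the ages did not overlap at 0.5 h after PH (52.95 to 54.52 in young, 57.9 to 60.26 in old) or at 2 h (52.83 to 54.52 and 54.94 to 61.02), and overlapped at 1 h, at 4 h and after sham. The lymphocyte sums were higher in all old than in all young arrays at 0 h and at 0.5, 1 and 2 h after PH, and overlapped at 4 h and after sham. Over the 9 conditions the old minus young difference was 1.435 for Ighm and 0.93 for Jchain. The lymphocyte markers Cd3e, Cd3g, Cd2, Cd79a, Cd79b and Gzma differed by only -0.04 to 0.04, and none of them passed. Their part in the age differences was not tested.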

How the data were processed

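Expression was measured on 46 arrays in 18 groups of age, operation and time. The authors deposited log2 values, which the submitters' processing notes credit to RMA; the set of arrays normalised in 1 run, and the version, is not given in the sources used here. RMA puts all arrays on a common distribution, so a change shared by most genes would not be seen. Genes were named from the platform annotation: of 12422 non-control probe sets, 10833 carried 1 symbol, 396 several and 1193 none, and all 93 members matched by gene ID with 0 symbols changed. Controls (66 probe sets) were not tested.

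All arrays entered 1 model with a mean per group (limma 3.58.1, R 4.3.3, 28 residual and 5.09 prior degrees of freedom). The Benjamini-Hochberg adjustment ran over all 12422, and the threshold was an adjusted p of 0.05. Both ages were weighted equally. Values are log2 differences ± SE, and intervals are 95%. For arrays, their number limits the precision. Members, roles, lists, motifs and tests were chosen with earlier results of these data known.

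Any member could be named; passing members were taken in order of adjusted p, and others by role. Of each list up to 4 passing genes a comparison were named, and Cdkn1a, Myc and Btg2 in any. For the other replication factors and other mitosis genes at 4 h, all passing genes were named. A list gene with several probe sets was counted by its brightest. Same-numbered replicates did not deviate together (mean correlation 0.006, against -0.00287 for different numbers; in 13 of 153 pairs of groups all same-numbered pairs exceeded 0.1), so numbers were not taken as pairs. The model was tested on simulated data. Alternatives were median centring, leaving out the dimmest 25%, trend and robust moderation, array weights, the spike-in mean as covariate, the replicate number as a block, 1 probe set per gene, no cross-hybridisation suffixes, the compared groups alone and each array left out. Leaving out 3 arrays that stood apart was added after seeing the data.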

Additional observations from a re-analysis of the deposited data

How the results depend on the processing

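No result changed its sign under any alternative. Most counts of passing members stayed within 1.5 times the main count; those that did not follow, and the cause was not tested. At 1 h after PH the count of 2 was 7 with array weights, 0 with the spike-in covariate, 1 without cross-hybridisation suffixes, 0 with the compared groups alone and 0 without 3 arrays that stood apart. At 2 h the count of 7 was 18, 1, 3 and 11 with array weights, the spike-in covariate, the compared groups alone and without those 3 arrays. The count of 14 between 0.5 and 4 h after PH was 9 with the compared groups alone. The count of 1 for that change in PH against sham was 0 without the dimmest 25%, a filter that removed Top2a itself, and 2 with array weights or the compared groups alone. The sham change of 3 was 7 with array weights. At 4 h the young count of 4 was 2 with the spike-in covariate, and the old count of 9 was 21 with array weights and 5 with the compared groups alone. Old against young at 0 h gave 8 with array weights and 1 with the compared groups alone or without the 3 arrays.

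Without 1 array each, the counts against 0 h ranged from 0 to 0 at 0.5 h, 0 to 4 at 1 h, 2 to 9 at 2 h and 11 to 14 at 4 h, and those against sham from 18 to 23, 27 to 37, 17 to 37 and 10 to 17. The other ranges were 11 to 14 within PH, 0 to 1 for the change against sham, 27 to 32 for sham against 0 h, 0 to 2 within sham, 1 to 3 in young and 1 to 9 in old mice, 0 to 1 between ages at 0 h, 2 to 7 over the 9 conditions and 0 to 0 for the age difference in the PH change. With the replicate number as a block, counts stayed within 1.5 times the main count, and 3 calls were lost: Cdk18 at 2 h after PH (adjusted p = 0.0509), Cdc16 within sham (0.0502) and Rrm1 (161731_at) between ages (0.0519). Same-numbered replicates did not deviate together, so the block pairs arrays by number only. Of the members, 24 of 93 were among the dimmest 25% of probe sets, where differences are compressed, Rrm2 and E2f3 among them.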
